A study of Mus musculus with 20 samples.

Results

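The 12 libraries described here test whether irradiation and recombinant IL-25 (rIL-25) act additively on the transcriptome of thymic group 2 innate lymphoid cells (ILC2). They are 12 of the 20 libraries of the series, chosen by their labels as its irradiation and rIL-25 treatment experiment, in 4 groups of 3, and all 12 entered the analysis. All came from young female wild-type (WT) mice whose strain the labels do not give. The first group received both treatments, that is sublethal irradiation with 425 rad and an intrathymic injection of 0.3 µg rIL-25. The second was injected with rIL-25 only, the third was irradiated only, and the fourth was untreated. Treatments lasted 3 days. A group injected with vehicle alone is not among them, so the injection and the cytokine cannot be told apart. ILC2 were sorted from enzymatically dissociated thymi, with a gate that the labels do not state, and their bulk RNA was read by MARS-seq from the 3′ ends of polyadenylated transcripts. The labels do not say that replicates were separate animals, so p-values measure only the spread between these samples.

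ILC2 are lymphocytes that lack antigen receptors and release IL-5, IL-13 and other type 2 cytokines when epithelial cells send alarm cytokines. IL-25, made by tuft cells, is such an alarm cytokine and is detected through a receptor that contains Il17rb. Sublethal irradiation kills most thymocytes, and the thymus regrows in the following weeks. In a factorial design the question is whether the doubly treated cells show what the single treatments predict. On a log2 scale additive effects mean that fold changes multiply, so a gene raised 2-fold by each treatment alone is predicted to be raised 4-fold by both. The interaction contrast is the irradiation difference with rIL-25 minus the irradiation difference without it, which equals the rIL-25 difference with irradiation minus that without. A negative contrast means that doubly treated cells lie below the additive prediction, and a positive one that they lie above it. Levels are given below as CPM, the counts of a gene scaled to a common library total.

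The libraries held 495079 to 1460702 counts, and 3 counts corresponded to 2.03 to 6.69 CPM. The sorted cells carried the ILC2 genes Gata3, Il17rb, Thy1, Il2ra and Il7r in every group. Other genes of the ILC2 list differed between groups. Id2 had means of 446 CPM after both treatments, 77.6 CPM after rIL-25, 193 CPM after irradiation and 32.6 CPM in untreated mice. Kit had means of 26.8, 89.1, 26.6 and 83.2 CPM in the same order. Rora was not analysed here, and in untreated mice other ILC2 genes were close to the detection limit, with 3 counts of Il1rl1, 3 of Klrg1, 5 of Il13, 5 of Icos, 1 of Il5 and 1 of Areg over the 3 libraries. In bulk samples, fewer cells of a type and less RNA per cell cannot be told apart. Some libraries stood apart from their group. The third rIL-25 library held myeloid and dendritic marker genes at a summed 2292 CPM, against 522.6 to 572 CPM in the other rIL-25 libraries. The second untreated library and the second doubly treated library differed from their groups in the genes described here, as given beside the results.

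Of 7482 genes tested, 155 had a non-additive level at an adjusted p under 0.05 (2.07%, edgeR's quasi-likelihood test with Benjamini-Hochberg adjustment), and these are called non-additive below. In 128 of them doubly treated cells lay below the additive prediction (1.71%) and in 27 above it (0.361%). At an unadjusted p under 0.05 there were 776 genes below and 501 above. Each of the 155 departed from additivity by at least 2-fold, against 15.7% of all genes tested. Their absolute log2 contrasts lay between 1.06 and 4.72, with a median of 1.87. Over all genes tested the contrast had a median of -0.01, with quartiles at -0.45 and 0.39, and the median standard error (SE) was 0.43. None of the 155 had a group with 3 or fewer counts in total, against 0.5% of all genes tested. In each of the 155 a contrast computed on linear CPM had the same sign as the log2 contrast, against 95.7% of all genes.

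By fitted group levels, the dominant shape among genes below additive was a higher level after either single treatment and a low level after both. In 124 of the 128, both single treatments had a fitted level above untreated, and in 123 the doubly treated level was below untreated. Over all genes tested, 33.0% had both single treatments above untreated and 50.9% had doubly treated cells below untreated. The median irradiation difference of the 128 genes was -1.33 on the log2 scale with rIL-25 and 0.58 without it. Their median rIL-25 difference was -1.39 with irradiation and 0.51 without it. The 27 genes above additive had the mirror shape, with 26 below untreated after each single treatment and 23 above untreated after both. Their median rIL-25 difference was 1.08 with irradiation and -0.54 without it. Library by library these shapes were less frequent. Every singly treated library lay above every doubly treated and untreated library in 18 of the 128 (14.1%), against 0.348% of all genes. Every singly treated library lay below them in 6 of the 27 (22.2%), against 0.281% of all genes. The contrast adds the doubly treated and untreated levels and subtracts the single ones, so choosing genes by it favours these shapes, and the counts are a description with no test.

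**Figure D1:**
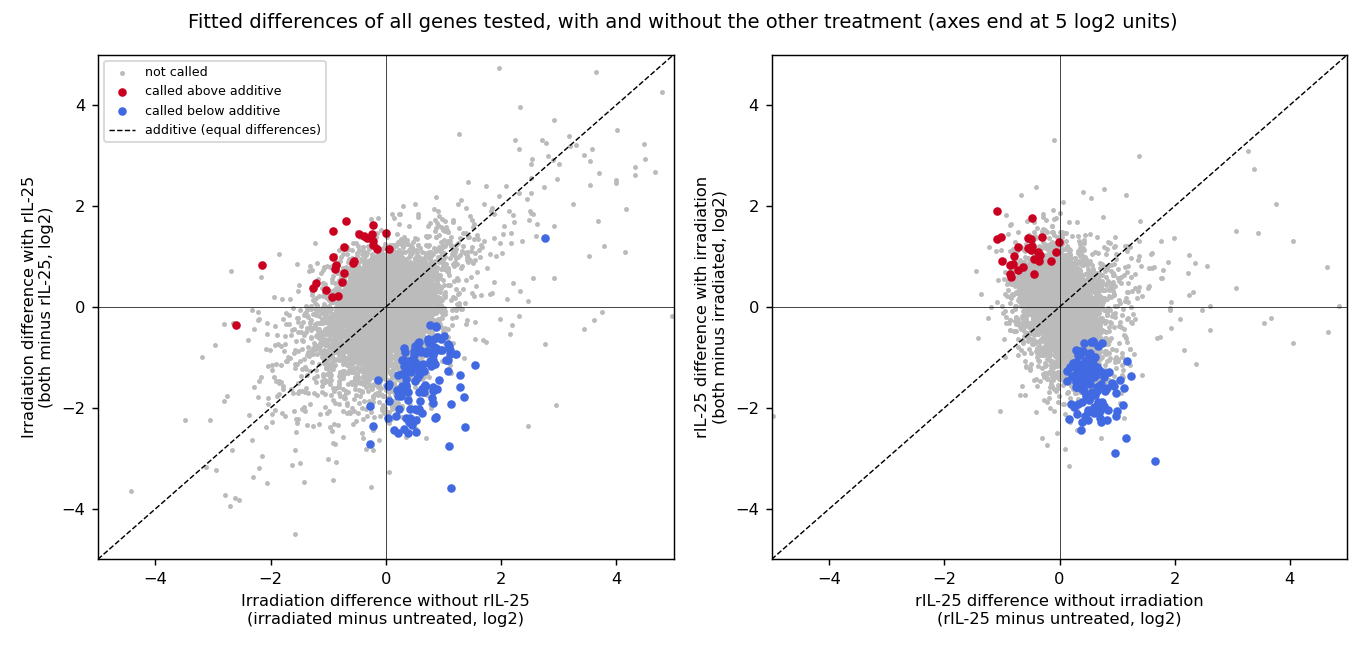
Each point is 1 of the 7482 genes tested. The left panel plots the irradiation difference with rIL-25 (both treatments minus rIL-25) against that without it (irradiated minus untreated), and the right panel the rIL-25 difference with irradiation against that without it, all in log2 units. Additive genes lie on the dashed diagonal. The 128 genes called below additive (blue) sit mostly to the lower right of each panel and the 27 called above (red) mostly in the upper left.

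Across all 7482 genes the irradiation difference with rIL-25 and that without it, which share no library, had a Pearson correlation of 0.414 and a Spearman correlation of 0.271, and 58.9% of genes had the same sign. The rIL-25 difference with irradiation and that without it correlated negatively, with a Pearson correlation of -0.189 and a Spearman correlation of -0.292, and 39.0% of genes had the same sign. Among the 3538 genes with a mean of at least 50 CPM the Pearson correlations were 0.341 for irradiation and -0.35 for rIL-25. These correlations are across genes, which are not independent replicates. All genes share the same 12 libraries and their depth, so the correlations describe these libraries only.

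Rpl39, a small protein of the large ribosomal subunit (chrX:37082520-37085402 in mm10 with GENCODE vM21, as for the other genes), had the smallest p. Its levels in replicates 1 to 3 were 106, 244 and 130.5 CPM after both treatments, 1089, 1043 and 1099.8 CPM after rIL-25, 1252, 1196 and 1126 CPM after irradiation and 351, 923 and 389.6 CPM in untreated mice. Every doubly treated library lay below every other library, and the singly treated libraries lay above the untreated ones. The second untreated library, at 923 CPM, was closer to the single treatments than to the other untreated libraries. The log2 contrast was -3.85 ± 0.43 (SE, n = 3 per group), 14.5-fold below additive (edgeR adjusted p = 5.6e-05).

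Haus3 encodes a subunit of the augmin complex, which nucleates microtubules in the mitotic spindle. It measured 18.6, 12.5 and 12.9 CPM after both treatments, 91.3, 75 and 63.6 CPM after rIL-25, 63.3, 50.9 and 53.5 CPM after irradiation and 34.9, 64.6 and 35.1 CPM in untreated mice. The doubly treated libraries did not overlap with any other library. Its contrast was -2.74 ± 0.42, or 6.67-fold below additive (edgeR adjusted p = 0.00205). Tbca, a tubulin folding cofactor, measured 43.9, 95.6 and 63.8 CPM after both treatments, 185, 139 and 170.4 CPM after rIL-25, 217, 270.1 and 232 CPM after irradiation and 71.4, 145 and 122 CPM in untreated mice, and here the doubly treated and untreated libraries overlapped. Its contrast was -2.35 ± 0.36 (edgeR adjusted p = 0.00205).

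Gas5, a long noncoding RNA whose introns hold small nucleolar RNAs, measured 313, 403 and 299 CPM after both treatments, 709, 746 and 632 CPM after rIL-25, 798, 1029.7 and 767 CPM after irradiation and 415, 656 and 392 CPM in untreated mice, with a contrast of -1.87 ± 0.29. Each singly treated library was above each doubly treated library, and the second untreated library reached the range of the rIL-25 libraries. Snrpe, a core protein of the spliceosomal snRNPs, measured 147, 129 and 126 CPM after both treatments, 316, 274 and 304 CPM after rIL-25, 287, 405 and 263 CPM after irradiation and 137, 251 and 168 CPM in untreated mice, with a contrast of -1.94 ± 0.31. Cept1, an enzyme of phospholipid synthesis, was expressed at a low level, at 3.38, 5.54 and 5.02 CPM after both treatments, 24.5, 18.3 and 35.6 CPM after rIL-25, 32.4, 21.5 and 35.7 CPM after irradiation and 7.6, 15.5 and 10.9 CPM in untreated mice. With 13 counts over the doubly treated libraries, its contrast of -3.76 ± 0.62 rests on few counts. Each of these genes was called (edgeR adjusted p between 0.00205 and 0.00249). 1810022K09Rik, a clone that the naming rule leaves out, had the second smallest p below additive and the largest contrast of the called genes, at -4.72 ± 0.65 (edgeR adjusted p = 0.00109).

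**Figure D2:**
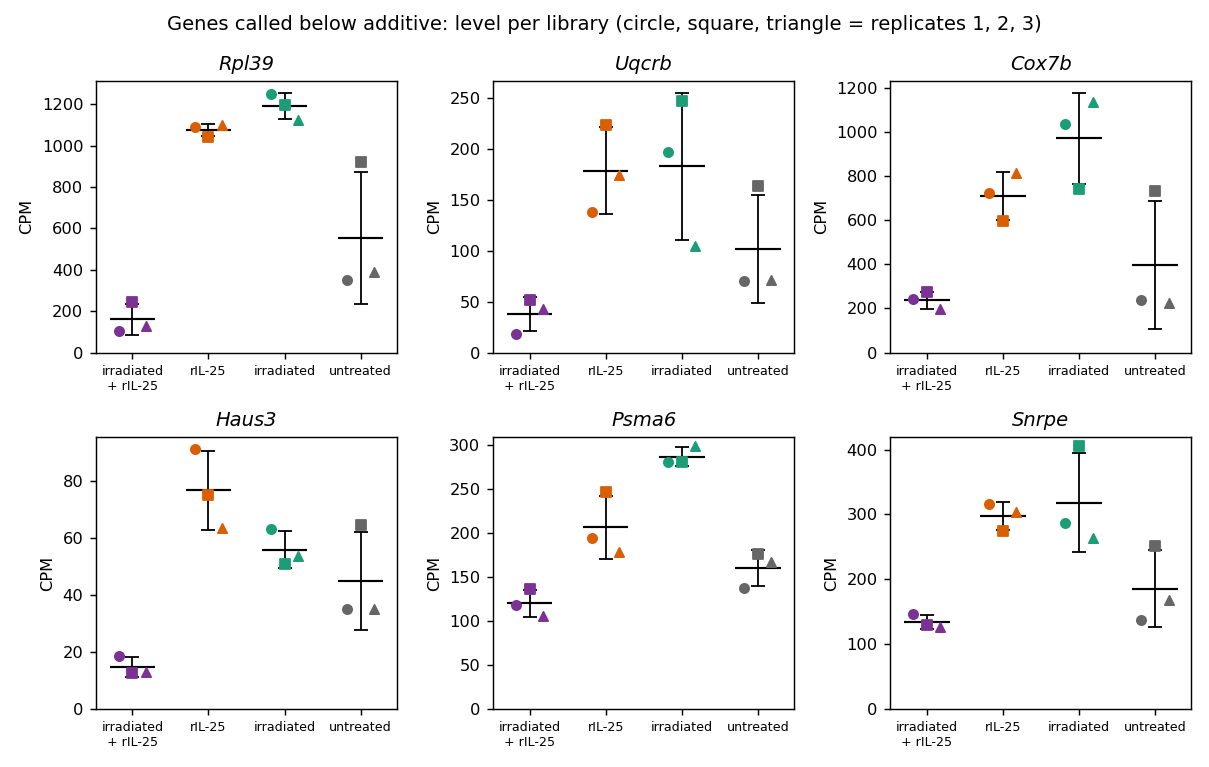
Levels in CPM (vertical axis, from 0) of 6 genes called below additive, by group. Points are libraries, with replicate 1 as a circle, 2 as a square and 3 as a triangle, and bars are the mean ± SD of 3 libraries. Doubly treated libraries are low and singly treated ones high, and the second untreated library (square) is the highest untreated one in each panel, at 923 CPM for Rpl39.

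Above additive, Bccip and Ppp4c had the smallest p. Bccip (chr7:133709333-133721145) encodes a partner of BRCA2 and of the cell cycle inhibitor p21. It measured 122, 145 and 158 CPM after both treatments, 24.5, 60.8 and 40.7 CPM after rIL-25, 38.9, 64.6 and 62.4 CPM after irradiation and 105, 64.6 and 96.8 CPM in untreated mice. All doubly treated libraries lay above all others, and the singly treated libraries were at or below the untreated ones. The contrast was 2.40 ± 0.40, or 5.28-fold above additive (edgeR adjusted p = 0.00294). Ppp4c (chr7:126785866-126792496), the catalytic subunit of protein phosphatase 4, which acts in DNA repair and centrosome function, measured 314, 255 and 236 CPM after both treatments, 81.8, 102 and 73.7 CPM after rIL-25, 107, 115 and 93.6 CPM after irradiation and 147, 68.8 and 152 CPM in untreated mice. Again the doubly treated libraries did not overlap with any other, and its contrast was 1.84 ± 0.35 (edgeR adjusted p = 0.00835).

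Other genes above additive had related shapes. Slmo2, which moves lipids between mitochondrial membranes, measured 252, 241 and 303 CPM after both treatments, 109, 129.8 and 102 CPM after rIL-25, 120.0, 176 and 167 CPM after irradiation and 202, 142 and 191 CPM in untreated mice, with a contrast of 1.43 ± 0.29. Its doubly treated libraries were above all others. Dhx9, an RNA helicase, measured 299, 199 and 329.8 CPM after both treatments, 90, 147 and 62.3 CPM after rIL-25, 86, 121 and 116 CPM after irradiation and 175, 103 and 168 CPM in untreated mice, with a contrast of 1.91 ± 0.39, and the doubly treated libraries again did not overlap with the rest. Stoml2, a scaffold protein of the inner mitochondrial membrane, measured 128, 121 and 138 CPM after both treatments, 39.5, 53.4 and 47 CPM after rIL-25, 63.3, 48.9 and 53.5 CPM after irradiation and 86.6, 40.7 and 70.2 CPM in untreated mice, with a contrast of 1.69 ± 0.36. Hnrnpm, a splicing regulator, measured 571, 726 and 821 CPM after both treatments, 243, 354 and 196 CPM after rIL-25, 249.8, 503 and 305 CPM after irradiation and 558, 281 and 539.6 CPM in untreated mice, with a contrast of 1.79 ± 0.39, and the doubly treated libraries were above the others here too. The edgeR adjusted p of these genes lay between 0.0124 and 0.016. Without the first untreated library the adjusted p was 0.0577 for Slmo2, 0.0621 for Dhx9, 0.0748 for Stoml2 and 0.0757 for Hnrnpm. Counting this fit, the call was lost in 1 fit that left out a library for Slmo2, 2 for Dhx9, 3 for Stoml2 and 6 for Hnrnpm.

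The remaining genes named by the rule above additive were Ndnl2 (1.92), a subunit of the SMC5/6 complex that acts in DNA repair, Oard1 (2.42), which removes ADP-ribose from proteins, Sptssa (1.37), a small subunit of the enzyme that starts sphingolipid synthesis, Isg20l2 (1.39), an exonuclease of ribosome maturation, the cyclin Ccnl2 (1.26), which acts in splicing, and Gramd4 (1.69). Sptssa, Gramd4 and Ccnl2 had another shape. In each of them every irradiated library lay below every other library, and doubly treated libraries overlapped with the untreated ones. Sptssa measured 137, 126 and 129.8 CPM after both treatments, 98.1, 130.5 and 77.6 CPM after rIL-25, 60, 58.7 and 73.6 CPM after irradiation and 123, 122 and 145 CPM in untreated mice. Each of these 6 calls was lost without the first untreated library and in 3 or 4 other fits that left out a library, and the highest adjusted p of a gene lay between 0.0748 for Sptssa and 0.0858 for Isg20l2.

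**Figure D3:**
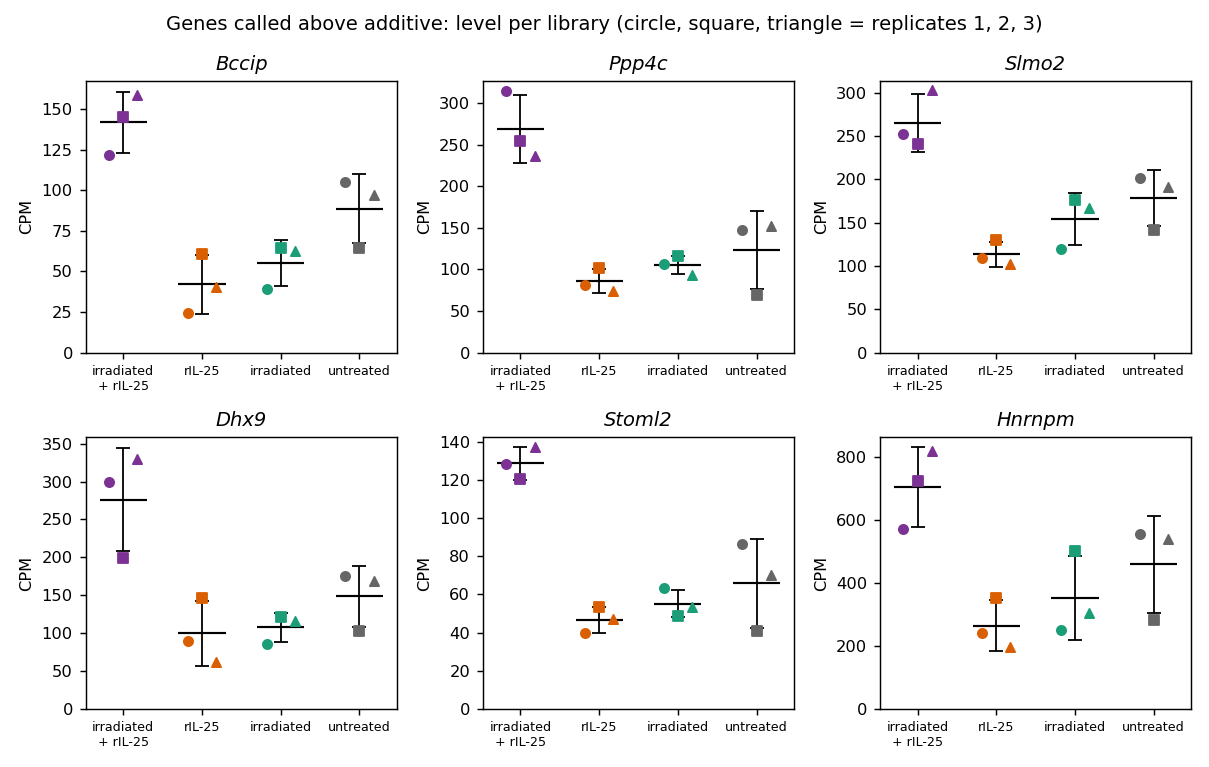
Levels in CPM (vertical axis, from 0) of 6 genes called above additive, by group, with points and bars (mean ± SD, 3 libraries) as in the plot of genes below additive. Doubly treated libraries lie above all others in each panel, at 122, 145 and 158 CPM for Bccip, and the second untreated library (square) is the lowest untreated one.

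Every doubly treated library lay below every singly treated one in 115 of the 128 genes below additive, against 5.95% of all genes tested. It lay below every untreated library in 52 of the 128, against 13.5% of all genes. Above additive, every doubly treated library lay above every singly treated one in 20 of 27 genes, against 4.82% of all genes, and above every untreated library in 10, against 13.5%. All of these shares describe genes that the same contrast had selected. The second untreated library was the highest untreated one in 110 of the 128 genes below additive, against 37.7% of all genes tested, and the lowest untreated one in 24 of the 27 genes above, against 36.4%. The second doubly treated library was the highest of its group in 94 of the 128, against 34.4% of all genes. Among the 27 genes above, the second rIL-25 library was the highest of its group in 21, against 34.5% of all genes, and the second irradiated library in 18, against 35.9%. The part of these libraries in the result was not tested beyond leaving each of them out.

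Leaving out 1 library at a time gave between 29 and 347 calls. Without the second untreated library there were 347 calls (221 below and 126 above), and without the second doubly treated library 289 (237 below and 52 above). Without the second rIL-25 library there were 171 (105 below and 66 above), and without the second irradiated library 187 (140 below and 47 above). Without the first untreated library there were 29 (27 below and 2 above), without the third untreated library 44, and without the third doubly treated library 50. Leaving out the first rIL-25 library, the first irradiated library or the third irradiated library gave 77, 80 and 74 calls. Genes called in each of the 12 fits that left out a library numbered 29, of which 27 were below additive and 2, Bccip and Ppp4c, above. The 27 included the respiratory genes Ndufa5, Cox7b, Uqcrb, Ndufa1, Cox7a2 and the assembly factor Cox20, the ribosomal genes Rpl39, Rpl36a, Rpl31 and Rpl22l1, the proteasome genes Psma4 and Psma6, and Snrpe, Srsf1, Haus3, Tbca, Gas5, Mrpl13 and Tomm7.

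**Figure D4:**
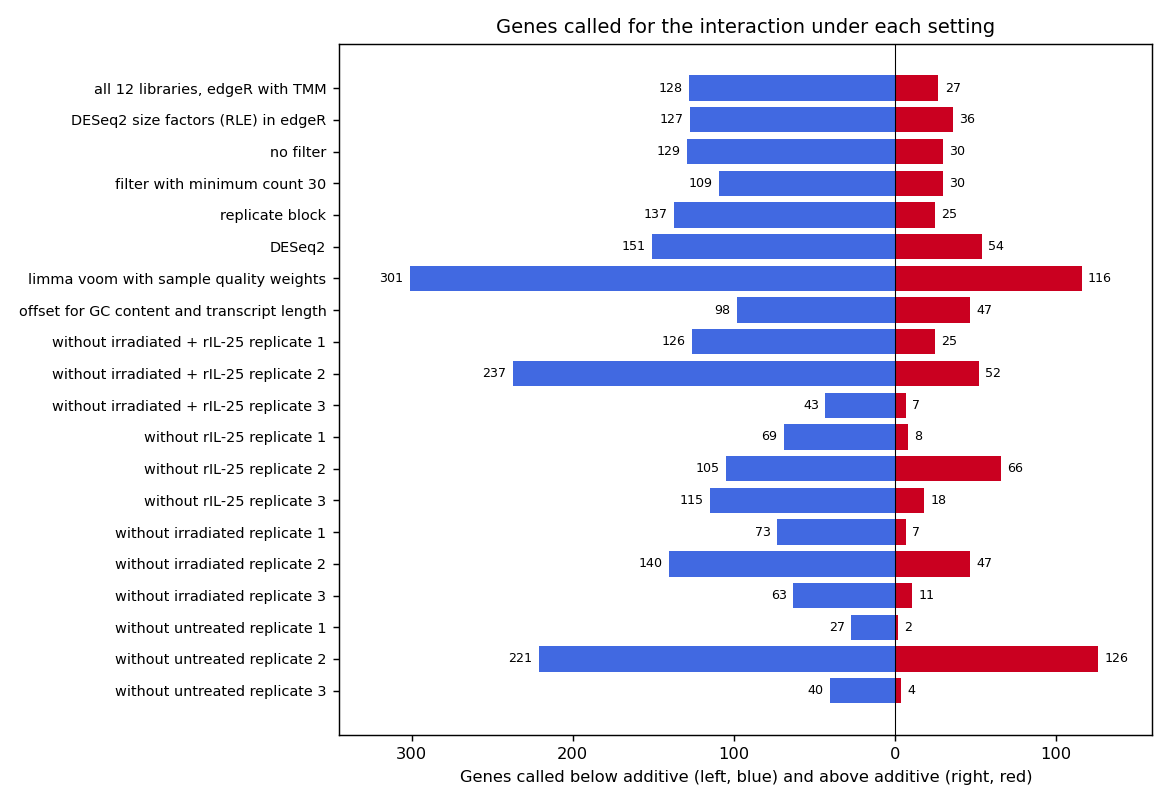
Number of genes called below additive (blue bars, to the left) and above additive (red bars, to the right) in the fit of all 12 libraries (top) and under each alternative, including each library left out in turn. The bars run from 27 to 301 genes below additive and from 2 to 126 above, and genes below outnumber genes above under each setting shown.

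The promoters of the named genes with the smallest p, 3 below and 2 above additive, are shown as the start regions of the genes on which the description above turns. Each window runs from 100 bases before to 30 bases after the RefSeq start on GRCm38.p6, 5′ to 3′ along the gene. They lie at chrX:37085193-37085322 (minus strand) for Rpl39, chr6:24527497-24527626 (minus strand) for Ndufa5, chr5:34169395-34169524 (minus strand) for Haus3, chr7:133709233-133709362 (plus strand) for Bccip and chr7:126792518-126792647 (minus strand) for Ppp4c. Capitals mark the ETS family core CCGGAAG and the GC box GGGCGG on either strand.
Rpl39: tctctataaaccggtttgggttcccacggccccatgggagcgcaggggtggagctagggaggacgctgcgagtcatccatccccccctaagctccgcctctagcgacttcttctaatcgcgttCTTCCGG
Ndufa5: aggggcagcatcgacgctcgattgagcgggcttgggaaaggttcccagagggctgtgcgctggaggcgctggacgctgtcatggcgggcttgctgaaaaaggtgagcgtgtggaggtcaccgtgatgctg
Haus3: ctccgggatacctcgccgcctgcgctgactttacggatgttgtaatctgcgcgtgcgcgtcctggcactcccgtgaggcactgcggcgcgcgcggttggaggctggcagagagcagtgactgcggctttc
Bccip: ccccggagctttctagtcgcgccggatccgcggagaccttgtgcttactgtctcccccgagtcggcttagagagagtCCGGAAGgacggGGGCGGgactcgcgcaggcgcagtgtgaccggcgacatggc
Ppp4c: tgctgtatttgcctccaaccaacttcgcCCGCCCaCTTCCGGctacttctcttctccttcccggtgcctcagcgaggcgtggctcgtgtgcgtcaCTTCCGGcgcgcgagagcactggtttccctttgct
CCGGAAG was present in the windows of Rpl39, Bccip and Ppp4c, and GGGCGG in those of Bccip and Ppp4c. A match is not a binding site. A start region was held for 128 of the 155 called genes and 6101 of the 7482 tested. CCGGAAG on either strand occurred in 19 of 105 genes below additive (18.1%) and 6 of 23 above (26.1%), against 16.7% of the tested genes and 6.46% of all 27025 windows. GGGCGG occurred in 49.5% of genes below and 69.6% of genes above, against 54.8% of the tested genes and 28.0% of all windows. CCAAT occurred in 27.6% of genes below and 26.1% of genes above, against 27.0% of the tested genes. In the windows printed the matches do not overlap, and these shares are a description with no test.

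Gene lists were used to describe which functions the non-additive genes belong to. Of the 155 genes, 30 were in at least 1 of 29 lists. Genes of oxidative phosphorylation, the respiratory chain and ATP synthase of mitochondria, had 10 of 75 tested members below additive, against 1.71% of all genes, and 0 above, and 59 of the 75 contrasts were below 0. Their median contrast was -0.45, against -0.01 over all genes. At an unadjusted p under 0.05, 26 members were below and 3 above, against 776 and 501 of all 7482 genes. DESeq2 called 14 below and 0 above, against 151 and 54 of all 7482 genes. With limma voom 19 were below and 2 above, against 301 and 116 of all genes. The called members were Ndufa5, Ndufa1 and Ndufb4 of complex I, Uqcrb of complex III, Cox7b, Cox7a2 and Cox6b1 of complex IV, and Atp5k, Atp5j and the inhibitor Atpif1 of ATP synthase. None of the called members belonged to complex II, whose subunits Sdha, Sdhb, Sdhc and Sdhd had contrasts of 0.12, -0.27, 0.23 and 0.86.

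Ndufa5 measured 47.3, 76.2 and 45.9 CPM after both treatments, 149.9, 139 and 137 CPM after rIL-25, 211, 170.3 and 241 CPM after irradiation and 60.8, 131 and 62.9 CPM in untreated mice, with a contrast of -2.63 ± 0.38 (edgeR adjusted p = 0.00137). Every doubly treated library lay below every singly treated one and overlapped with the untreated range. Uqcrb, which binds ubiquinone in complex III, measured 18.6, 51.3 and 43 CPM after both treatments, 138, 223 and 174 CPM after rIL-25, 196, 247 and 105 CPM after irradiation and 69.9, 163 and 71.4 CPM in untreated mice, with a contrast of -3.07 ± 0.49 (edgeR adjusted p = 0.00211). Its doubly treated libraries lay below all others. Cox7b measured 242, 273 and 196 CPM after both treatments, 725, 596 and 815 CPM after rIL-25, 1038, 742 and 1139 CPM after irradiation and 237, 733 and 224 CPM in untreated mice, with a contrast of -2.88 ± 0.45 (edgeR adjusted p = 0.00205). The second untreated library reached the levels of the single treatments in Cox7b and came close to them in Ndufa5. Ndufa1, at 132, 168 and 154 CPM after both treatments, 248, 227 and 233 CPM after rIL-25, 276, 366 and 274 CPM after irradiation and 143, 178 and 148 CPM in untreated mice, had similar doubly treated and untreated levels and higher levels after each single treatment, with a contrast of -1.60 ± 0.26. It was not called in a fit with an offset for GC content and transcript length (adjusted p = 0.065).

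Cytosolic ribosomal proteins had 9 of 76 tested members below additive, against 1.71% of all genes, and 0 above, with 57 contrasts below 0 and a median of -0.46. They included Rpl39, Rpl22l1, Rpl36a, Rpl31, Rps24, Rps23, Rps4x and Rps28. At an unadjusted p under 0.05, 32 members were below and 0 above, against 776 and 501 of all 7482 genes. DESeq2 and limma voom called 15 and 20 below, against 151 and 301 of all genes. Rpl36a measured 458, 609.5 and 341 CPM after both treatments, 1062, 1209 and 975 CPM after rIL-25, 957, 1096 and 1037 CPM after irradiation and 565, 867 and 733 CPM in untreated mice, with a contrast of -1.72 ± 0.29, and each doubly treated library was below each singly treated one. Rpl22l1, the paralog of Rpl22, had a contrast of -2.36 ± 0.44, against 0.24 ± 0.35 for Rpl22, which was not called. Of the 19 alternative fits, 5 called more oxidative phosphorylation than ribosomal genes below additive, 11 called fewer and 3 as many. Many ribosomal and small respiratory genes have near-identical pseudogenes, and how reads that match several copies were counted is not given in the sources used here, so single genes of these families are uncertain.

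The called members of both families whose levels are given above had transcripts of 419 bases (Ndufa1) to 1001 bases (Cox7b). Over all genes tested, the share called below additive was highest among the shortest transcripts. Of 214 tested genes with a transcript under 700 bases, 25 were called below additive (11.7%) with a median contrast of -0.66, whereas 33 of 3062 genes with 2000 to 4000 bases were called (1.08%). By GC content of the last 500 bases, the share was 0.475% at 50% or more and 3.45% between 35 and 40%. The share of a library's counts in transcripts under 1000 bases was 24.0, 30.7 and 24.6% after both treatments, 30.7, 30.5 and 28.6% after rIL-25, 30.3, 32.2 and 30.3% after irradiation and 28.8, 27.9 and 29.0% in untreated mice. Doubly treated libraries 1 and 3 were thus the lowest of all 12, and library 2 was within the range of the single treatments. With an offset per library for GC content and length, an alternative chosen after seeing the data, 5 oxidative phosphorylation genes and 8 ribosomal genes were called below additive, with medians of -0.16 and -0.23. The same fit called 98 of all 7442 genes below additive. Leaving out single libraries gave 5 to 15 and 4 to 23 calls below, against 27 to 237 over all genes.

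**Figure D5:**
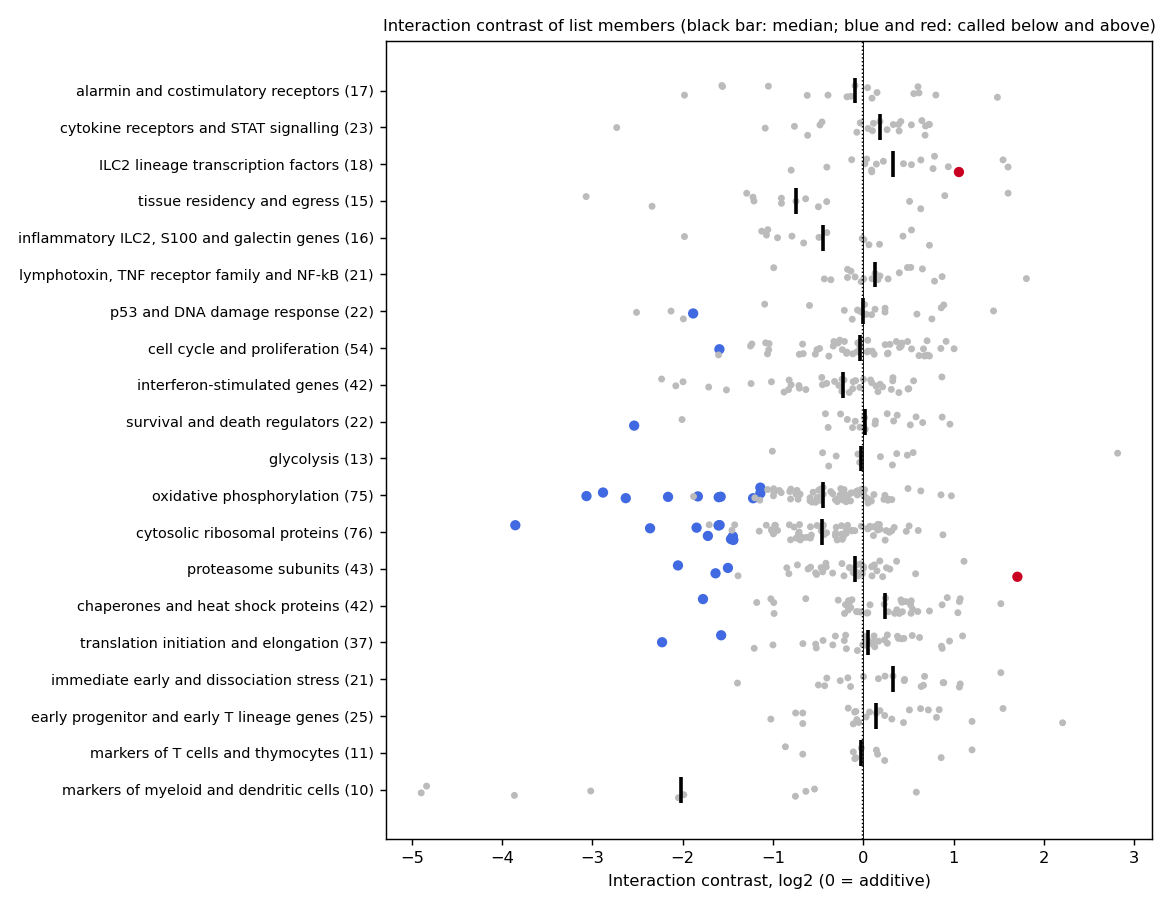
Interaction contrast (log2, horizontal axis, 0 is additive) of each tested member of the lists with at least 10 tested genes, whose number is in brackets. Grey points were not called, blue points were called below and red points above additive, and the black bar is the list's median. Oxidative phosphorylation and ribosomal protein genes hold most of the blue points, with medians of -0.45 and -0.46, and the dotted line marks the median of all genes at -0.01.

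Proteasome subunits had 3 of 43 members below additive and 1 above, against 1.71% and 0.361% of all genes, with a median of -0.10. The 3 were Psma6, Psma4 and Psma2, alpha subunits, which form the outer rings of the core particle. The member above additive was Psmb2, a beta subunit (1.70 ± 0.44), a call that was lost in 10 alternative fits, with adjusted p up to 0.159. Psma6 measured 118, 136 and 105 CPM after both treatments, 194, 247 and 178 CPM after rIL-25, 281, 279.9 and 299 CPM after irradiation and 137, 176 and 167 CPM in untreated mice, with a contrast of -1.64 ± 0.27 (edgeR adjusted p = 0.00249). Its doubly treated libraries lay below all singly treated and untreated libraries, and its irradiated libraries above all others. Psma4 measured 40.5, 70.7 and 47.3 CPM after both treatments, 131, 80.5 and 94.1 CPM after rIL-25, 151, 123 and 183 CPM after irradiation and 57.7, 88.5 and 62.9 CPM in untreated mice, with a contrast of -2.05 ± 0.36 (edgeR adjusted p = 0.00448). Of translation factors, 2 of 37 were below additive, against 1.71% of all genes, and 0 above, with a median of 0.06. They were Eif3e, a subunit of the initiation factor eIF3 (-2.23 ± 0.45), and Eif5, which triggers GTP hydrolysis at the start codon (-1.57 ± 0.33). Without the first untreated library the adjusted p of Eif3e and Eif5 was 0.0651. Counting this fit, the call was lost in 1 fit that left out a library for Eif3e and in 4 for Eif5.

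Of 22 tested p53 and DNA damage genes, 1 was called below additive, against 1.71% of all genes, and 0 above, and the median contrast was 0.00. The called gene was Ccng1, a p53 target, which measured 28.7, 40.2 and 22.2 CPM after both treatments, 57.2, 52.1 and 43.2 CPM after rIL-25, 87.6, 114 and 64.6 CPM after irradiation and 38, 40.7 and 44.8 CPM in untreated mice. Irradiated libraries were the highest and doubly treated libraries within or below the untreated range, with a contrast of -1.89 ± 0.39 (edgeR adjusted p = 0.0131). The call was lost without the third doubly treated library (adjusted p = 0.0575) and without the first untreated library (0.0651). Cdkn1a, which encodes the cell cycle inhibitor p21, had a contrast of 0.24 ± 0.41 (edgeR adjusted p = 0.83).

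Of 54 cell cycle genes, 1 was called below additive, which is close to the 1.71% of all genes, and 0 above, with a median of -0.04. It was Ccna2, the cyclin of S phase and G2, at 82.8, 175 and 76.7 CPM after both treatments, 299.8, 212 and 266 CPM after rIL-25, 282, 213 and 198 CPM after irradiation and 149, 229 and 162 CPM in untreated mice, with a contrast of -1.59 ± 0.37 (edgeR adjusted p = 0.0248), and 6 of the fits that left out a library lost it, with adjusted p up to 0.115. The proliferation marker Mki67 had a contrast of -0.19 ± 0.31 (edgeR adjusted p = 0.825). Among 22 regulators of survival and death, 1 was called below additive, against 1.71% of all genes, and 0 above. It was Casp1, the protease that matures IL-1β and IL-18, at 8.45, 13.9 and 3.58 CPM after both treatments, 40.9, 32.5 and 24.2 CPM after rIL-25, 27.6, 31.3 and 40.1 CPM after irradiation and 21.3, 15.5 and 31.5 CPM in untreated mice. Its contrast was -2.54 ± 0.59 (edgeR adjusted p = 0.0244), and the call was lost in 4 of those fits, with adjusted p up to 0.106. Of 42 chaperone genes, 1 was called below additive, close to the 1.71% of all genes, and 0 above. It was Hsp90aa1, the stress-inducible HSP90 (-1.78 ± 0.38), and its call was lost in 3 of those fits (adjusted p up to 0.0775). Hspa1b, an inducible HSP70, was not called at 1.52 ± 0.41 (edgeR adjusted p = 0.0552) and passed in 7 alternative fits, with adjusted p down to 0.00699. The chaperone list's median was 0.24.

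Of 18 lineage transcription factors of ILC2, 1 was above additive, against 0.361% of all genes, and 0 below, with a median of 0.33. It was Bcl11b, which maintains ILC2 and T cell identity, at 161, 158 and 143 CPM after both treatments, 149, 130.5 and 116 CPM after rIL-25, 76.2, 94 and 73.6 CPM after irradiation and 146, 136 and 154 CPM in untreated mice. Irradiated libraries were lower than all others, and doubly treated libraries overlapped with the rIL-25 and untreated ranges, with a contrast of 1.06 ± 0.27 (edgeR adjusted p = 0.0417). This call was lost in 10 of the alternative fits, with adjusted p up to 0.125. Hes1, a target of Notch signalling, measured 117, 159 and 81.7 CPM after both treatments, 123, 152 and 139.9 CPM after rIL-25, 77.9, 68.5 and 29 CPM after irradiation and 235, 138 and 246 CPM in untreated mice, with a contrast of 1.55 ± 0.41 that did not pass (edgeR adjusted p = 0.0515) and passed in 9 alternative fits. Gata3, the defining transcription factor of ILC2, had a contrast of 0.02 ± 0.28 (edgeR adjusted p = 0.986).

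None of the 8 tested genes of type 2 cytokines and effectors was called by edgeR, DESeq2 or limma voom, and 0 had an unadjusted p under 0.05. Over all 7482 genes edgeR called 2.07%, and 1277 had an unadjusted p under 0.05. Among 8 genes, 0 calls is near the share over all genes. Their median contrast of -0.12 depended on single libraries. It was 0.87 without the third rIL-25 library, which held 50 of the 65 Il13 counts of its group, and -0.77 without the third doubly treated library. Both fits called 0 of the 8. Il13 measured 54.1, 125 and 305 CPM after both treatments, 1.36, 9.46 and 63.6 CPM after rIL-25, 8.11, 25.4 and 26.8 CPM after irradiation and 3.04, 0 and 3.63 CPM in untreated mice. The doubly treated libraries were the highest except that the third rIL-25 library exceeded the first doubly treated one, and replicates spread widely within each treated group. The fitted irradiation difference of Il13 was 2.83 with rIL-25 and 3.00 without it, and its contrast was -0.18 ± 1.14 (edgeR adjusted p = 0.961). With that SE, an interaction of several fold in either direction was not detectable for Il13. Il5, Il4 and Areg were removed by the filter on low counts. Il5 measured 8.45, 9.7 and 43.7 CPM after both treatments, 0, 2.03 and 11.4 CPM after rIL-25, 0, 1.96 and 15.6 CPM after irradiation and 0, 1.4 and 0 CPM in untreated mice. Il25 itself was not analysed here.

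Alarmin and costimulatory receptors had 0 of 17 tested members called by edgeR, DESeq2 or limma voom and 1 with an unadjusted p under 0.05. With 2.07% of all genes called by edgeR, 0 of 17 is near the share over all genes. Their median contrast was -0.09, and 0.52 without the third rIL-25 library, again with 0 called. That library held 38 of the 45 Klrg1 counts and 19 of the 19 Il1rl1 counts of its group. Il17rb measured 243, 159 and 194 CPM after both treatments, 203, 195 and 256 CPM after rIL-25, 206, 174 and 229.6 CPM after irradiation and 201, 197 and 209 CPM in untreated mice, and its contrast of -0.14 ± 0.28 had a small SE. Il1rl1, the IL-33 receptor, had 55.8, 36 and 52.3 CPM after both treatments, 0, 0 and 24.2 CPM after rIL-25, 8.11, 11.7 and 75.8 CPM after irradiation and 0, 0 and 3.63 CPM in untreated mice, with a contrast of -1.56 ± 1.68. Klrg1, a marker of activated ILC2, had 55.8, 34.6 and 69.5 CPM after both treatments, 0, 4.73 and 48.3 CPM after rIL-25, 11.4, 19.6 and 29 CPM after irradiation and 1.52, 0 and 2.42 CPM in untreated mice, with a contrast of -1.98 ± 1.42. For both of them the untreated libraries were at or near 0 and the SE exceeded 1 log2 unit, so additivity could not be judged. The edgeR adjusted p was 0.854, 0.704 and 0.525 for Il17rb, Il1rl1 and Klrg1.

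Of the 28 lists with a tested gene, 19 held no called gene, in a fit that called 2.07% of all 7482 genes. Over all genes DESeq2 called 151 below additive and 54 above, and limma voom 301 and 116. At an unadjusted p under 0.05, 776 of all genes were below and 501 above. Interferon-stimulated genes had 0 of 42 called by edgeR, 1 below additive each by DESeq2 and limma voom, and 7 below at an unadjusted p under 0.05, with a median of -0.23. Ifitm2, which restricts virus entry, had a contrast of -1.71 ± 0.48 (edgeR adjusted p = 0.0647). Tissue residency and egress genes had 0 of 15 called by edgeR, DESeq2 or limma voom, 6 below and 2 above at an unadjusted p under 0.05, and a median of -0.75. In this list the homing receptor Ccr7 had a contrast of -2.34 ± 0.82 and Klf2, which promotes egress, one of 1.60 ± 0.56, with edgeR adjusted p of 0.146 and 0.143. Lymphotoxin, TNF receptor family and NF-kB genes had 0 of 21 called by edgeR and DESeq2, 1 above by limma voom and 1 above at an unadjusted p under 0.05. That member was Nfkb1, the p50 subunit of NF-kB, at 1.80 ± 0.59 (edgeR adjusted p = 0.119).

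Markers of other cell types were summed to describe the purity of the sorts. For comparison, edgeR called 2.07% of all 7482 genes, and 776 were below and 501 above at an unadjusted p under 0.05. Of 18 listed T cell and thymocyte markers 11 were tested and 0 called by edgeR, DESeq2 or limma voom, with 1 below and 1 above at an unadjusted p under 0.05. They had a median contrast of -0.02 and summed levels of 2872 to 2975 CPM after both treatments, 1575 to 1779 CPM after rIL-25, 2617 to 3503 CPM after irradiation and 1516 to 1929 CPM in untreated mice. The receptor constant genes Trac, Trbc1, Trbc2, Trdc and Tcrg-C1 were not analysed here. Of 30 listed myeloid and dendritic markers 10 were tested and 0 called by the same tools, with 6 below at an unadjusted p under 0.05 and a median of -2.02. Defining markers such as Adgre1, Itgam, Flt3 and Xcr1 were not analysed here. The sums over this list were 594.7 to 618 CPM after both treatments, 522.6 to 2292 CPM after rIL-25, 472 to 659.9 CPM after irradiation and 412 to 518 CPM in untreated mice. Without the third rIL-25 library the median was -0.69. H2-Ab1, an MHC class II chain, measured 25.3, 36 and 25.1 CPM after both treatments, 50.4, 27.7 and 311 CPM after rIL-25, 48.7, 35.2 and 73.6 CPM after irradiation and 22.8, 37.9 and 24.2 CPM in untreated mice, with 1 rIL-25 library far above all others and a contrast of -3.02 ± 0.88 (edgeR adjusted p = 0.0755). Of inflammatory ILC2, S100 and galectin genes 0 of 16 were called by edgeR, DESeq2 or limma voom and 1 was below at an unadjusted p under 0.05, with a median of -0.45 that was 0.09 without the same library. Without it 133 genes were called in all, 115 below and 18 above. Mast cell, basophil and eosinophil markers summed to 8.60 to 63.7 CPM after both treatments, 272 to 409.7 CPM after rIL-25, 33.4 to 63.3 CPM after irradiation and 252 to 361 CPM in untreated mice. Most of this was Cpa3, a mast cell protease, except in the third doubly treated library (2.15 of 8.60 CPM). Cpa3 measured 13.5, 61 and 2.15 CPM after both treatments, 309, 404 and 262 CPM after rIL-25, 63.3, 56.8 and 29 CPM after irradiation and 249, 291 and 353 CPM in untreated mice. Its contrast was -1.28 ± 0.69 (edgeR adjusted p = 0.372), which passed in limma voom and without the second doubly treated library. Stromal, epithelial and endothelial markers summed to 151 to 351 CPM after both treatments, 204 to 348 CPM after rIL-25, 123 to 435 CPM after irradiation and 149 to 215 CPM in untreated mice. The fibroblast gene Dcn measured 86.2, 6.93 and 1.43 CPM after both treatments, 9.54, 107 and 3.81 CPM after rIL-25, 4.87, 166 and 6.69 CPM after irradiation and 1.52, 9.83 and 13.3 CPM in untreated mice, so 1 library of each treated group stood far above the rest. The part of these markers in the result was otherwise not tested.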

How the data were processed

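ILC2 libraries were made by MARS-seq, per the labels' protocols. The authors deposited raw counts per gene, with mm10 as the build per the submitters' processing notes, which name STAR 2.5.2b, HTSeq, cutadapt, bcl2fastq and DESeq2. Whether reads or molecular identifiers were counted, and whether strand was used, is not given in the sources used here, so antisense or overlapping genes cannot be told apart. The second experiment of the series was not used.

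All 12 count columns entered 1 fit of the 4 groups (R 4.3.3, edgeR 4.0.16). Of 9973 entries, filterByExpr (minimum count 10) kept 7482. Among the entries, 16 had names turned into dates and 1 name occurred again, and these are not named here. Libraries were scaled by TMM, and the contrast was tested with glmQLFTest. The SE is the contrast divided by the square root of F. CPM uses TMM-scaled library sizes. Called genes have an adjusted p under 0.05. Members, lists and the naming rule (12 called genes of smallest p per direction, leaving out predicted genes and Rik clones, 2 of smallest p per list, and core ILC2 genes) were chosen with earlier results of these data known. Other called genes are named after their values were seen.

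Alternatives used RLE factors, no filter, a minimum count of 30, a replicate block, DESeq2 1.42.0, limma voom (limma 3.58.1), and each library left out. An offset for GC content and transcript length (GENCODE vM21, last 500 bases) was added after seeing the data. Replicate libraries differed beyond sampling noise (chi-square per degree of freedom 2.18 to 6.51). The fit was tested on simulated counts, drawn independently with changes set only in the doubly treated group. They held no outlying libraries, so that test cannot show how the fit behaves with such libraries.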

Additional observations from a re-analysis of the deposited data

Results flagged for a closer look

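For 155 genes the irradiation difference in rIL-25-injected mice differed from that in uninjected mice by the test of the difference itself (edgeR's interaction contrast, adjusted p under 0.05). These are the genes described above, 128 below and 27 above additive. No test for single outlying samples was run in these groups of 3 libraries.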

How the results depend on the processing

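None of the called genes named by the rule reversed sign in an alternative fit. Of all 155 called genes 1 did, Snord104, at -1.50 and, with the offset below, 0.11. List medians changed sign under at least 1 alternative in 15 of 28 lists, and 11 of these medians lay within 0.15 of 0. The others were those of GIMAP GTPases, immediate early genes, S100 genes and NK cell markers. Some of the 11 moved far under an alternative. The median of type 2 genes ranged from -0.77 to 0.87, that of alarmin and costimulatory receptors from -0.22 to 0.52 and that of stromal markers from -3.06 to 0.23. Others moved little, such as that of cell cycle genes (-0.07 to 0.08). Calls (below and above additive) were 163 (127 and 36) with RLE factors, 159 (129 and 30) without a filter, 139 (109 and 30) with a minimum count of 30, 205 (151 and 54) with DESeq2 and 417 (301 and 116) with limma voom and sample weights. An offset for GC content and transcript length gave 145 (98 and 47), and 96 of the 128 genes below and 24 of the 27 above were shared. Counts above additive moved by over 1.5 times with DESeq2, limma voom and the offset, as did all counts with limma voom, and the cause was not tested. Each library left out in turn gave 29 to 347 calls, 27 to 237 below and 2 to 126 above. The lowest counts came without the first untreated library (29), the third untreated library (44) and the third doubly treated library (50), the highest without the second untreated (347) and second doubly treated library (289). Genes called in every alternative fit, the offset included, numbered 27. Of the 33 called genes that the rule named, 15 kept their call and sign throughout.

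Same-numbered libraries were not alike over all 4 groups, since 5 of 18 same-numbered pairs correlated above 0.1. All 3 such pairs of rIL-25 and irradiated libraries did (0.107 to 0.496). Doubly treated libraries correlated at 0.0713 to 0.116 with irradiated and at -0.00961 to 0.111 with rIL-25 libraries of the same number. Same-numbered pairs with untreated libraries were all negative. They lay at -0.308 to -0.14 for rIL-25, -0.201 to -0.0134 for irradiated and -0.0431 to -0.0159 for doubly treated libraries. Of 12 libraries, 5 correlated best with their own number, and the labels do not say that a number pairs samples. With the replicate number as a block 162 genes were called, 137 below and 25 above, of which 121 and 18 were shared. The precision is limited by 3 libraries per group and by depth, since genes near 3 counts in untreated mice, such as Il13, Il1rl1 and Klrg1, had SEs over 1 log2 unit.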

Other observations

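Called genes outside the lists held several groups that were noticed after their values were seen, so they are given as values with no test. Spliceosome and RNA-binding proteins lay on both sides of additivity. Below it were the core snRNP proteins Snrpe (-1.94) and Snrpg (-1.61), the branch point factor Sf3b6 (-1.60), the SR proteins Srsf1 (-2.80) and Srsf6 (-1.67), and Mbnl1 (-1.96), Tial1 (-2.69) and Ptbp3 (-1.93). Above it were Hnrnpm (1.79), Dhx9 (1.91), Ccnl2 (1.26), Pcbp1 (1.11) and Rsrp1 (1.14).

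Called genes below additive included host genes of small nucleolar RNAs and genes of nucleolar proteins, with log2 contrasts of -1.87 for Gas5, -1.93 for Snhg1, -1.47 for Snhg8, -1.68 for Taf1d, -1.26 for Nop56, -1.26 for Nop58, -1.34 for Gnl3 and -1.73 for Npm1. Genes of chromosome structure and segregation below additive were the cohesin genes Stag2 (-2.13) and Pds5b (-2.58), the condensin subunit Ncapg (-1.79), the kinesin Kif4 (-1.38), the kinetochore gene Casc5 (-2.72) and Haus3 (-2.74). Genes of lymphocyte signalling below additive were Grap2 (-1.92), an adaptor of antigen receptor signalling, Rasgrp1 (-1.87), a guanine nucleotide exchange factor, and Cbl (-1.78), a ubiquitin ligase that ends receptor signalling. Other genes of these kinds were not counted. All of the genes given here were called in edgeR's fit of the 12 libraries. Snrpe, Srsf1, Mbnl1, Gas5, Haus3 and Grap2 were also called in every alternative fit. Other calls depended on the fit. Of the 19 alternatives, 14 lost the call of Kif4, 12 that of Tial1 and 10 each those of Srsf6 and Snhg1. Those of Sf3b6, Pcbp1 and Rsrp1 were lost in 9 each, and those of Ptbp3, Snhg8, Gnl3 and Ncapg in 8 each.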
